A study of Bos taurus with 2 samples.

Results

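The long-arm pericentromere is taken here as the stretch of the cattle Y-chromosome from 16.65 Mb to 17.65 Mb, which begins just beyond the centromere interval. It was divided into bins of 5 kb, and a bin was kept where at least 5 CpGs had 10 or more PacBio reads. All 200 possible bins passed, of 11882 bins that passed on the whole chromosome. They hold 15574 of the 975164 CpGs measured on both platforms. None of the CpGs in the window had fewer than 10 reads.

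The data are 1 PacBio HiFi library and 1 Oxford Nanopore (ONT) library, both labelled as lung genomic DNA of Bos taurus. According to the methods, the assembly came from a single fetal F1 of a Wagyu sire and a Charolais dam, so the Y-chromosome is the Wagyu one. There was no treatment, genotype contrast or second animal. With 1 library on each platform no difference between regions could be tested. The errors given below are standard deviations (SD) over bins, CpGs or repeat copies, which are not replicates. Positions refer to the Y of ARS-UCD2.0 and rise towards the tip of the long arm. The tables hold no expression values, so the labelled tissue was not checked against marker genes.

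A centromere is the chromosomal site on which the kinetochore is built, and it is marked by nucleosomes that carry the histone variant centromere protein A (CENP-A). Satellite arrays of mammalian centromeres are usually highly methylated at CpGs, and a local dip in methylation often accompanies CENP-A. The pericentromere beside the array is commonly heterochromatic and rich in segmental duplications, inverted repeats and copies of gene families. On a Y-chromosome, multicopy gene families are often expressed in the testis, and their methylation is read here in lung. The study placed the CENP-A signal of cattle on the long-arm side of the array. According to its methods, that signal was read in muscle satellite cells of a male Angus calf. It thus comes from another animal, breed and tissue than the methylation described here. The methylation dips that the study reports lie at the flanks of the array. The CENP-A signal itself was not analysed here, so the low stretches below are described by their methylation alone.

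The mean PacBio level of the 200 bins was 52.3% ± 14.4 (SD over bins, n = 200), with a median of 54.2% and a range from 22.4% to 83.6%. The mean ONT level, taken as the mean of the values of both strands, was 43.6% ± 11.6 (SD over bins, n = 200), and it ranged from 17.9% to 65.2%. ONT values lay below PacBio values by 8.67 points on average, with an SD of 7.31 points over bins. The order of the bins was similar on both platforms, with a Pearson's r of 0.865 across bins, which share position and CpG number. The PacBio depth per CpG had a median of 41 reads, and 5% and 95% of CpGs lay at or below 30 and 53 reads. Where 30 of 41 reads were modified, the level of a CpG was 73.2% and its 95% Wilson interval reached from 58.1% to 84.3%. Such intervals cover counting error only. The depth behind the ONT values is unknown, because they are percentages without read counts.

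The window was not uniform, and it fell into 8 blocks when bins were grouped by their CpG number and by the gap between the ONT strands. The 5 bins nearest the centromere formed an array-like block of 304 CpGs per bin at the median. Their PacBio level was 81.5% ± 1.99 (SD, n = 5 bins) and their ONT level 63.5% ± 1.13. The bin beside them, between 16675001 and 16680000, held 78 CpGs and stood at 61.9% on PacBio and 49.7% on ONT. A CpG-poor block of 84 bins followed, from 16680001 to 17100000, with 37 CpGs per bin at the median, 42.4% ± 10.97 on PacBio and 36.6% ± 8.89 on ONT. Beyond it, 15 bins from 17100001 to 17175000 had 93 CpGs per bin at the median, 68.1% ± 2.15 on PacBio and strongly different ONT strands.

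The next 38 bins, from 17175001 to 17365000, had 125 CpGs per bin at the median and contain a tandem gene array. They stood at 62.5% ± 5.18 on PacBio and 58.2% ± 4.36 on ONT. A second CpG-poor block of 32 bins, from 17365001 to 17525000, was at 43.3% ± 9.25 on PacBio and 36.9% ± 7.82 on ONT. It was followed by 8 CpG-rich bins at 62.7% ± 5.77 on PacBio and, up to the end of the window, by 17 bins in which the ONT strands differed again, at 67.1% ± 3.50 on PacBio. Both CpG-poor blocks were thus lower on PacBio than each of the other blocks, by more than the SD of the bins within them in every case.

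**Figure D1:**
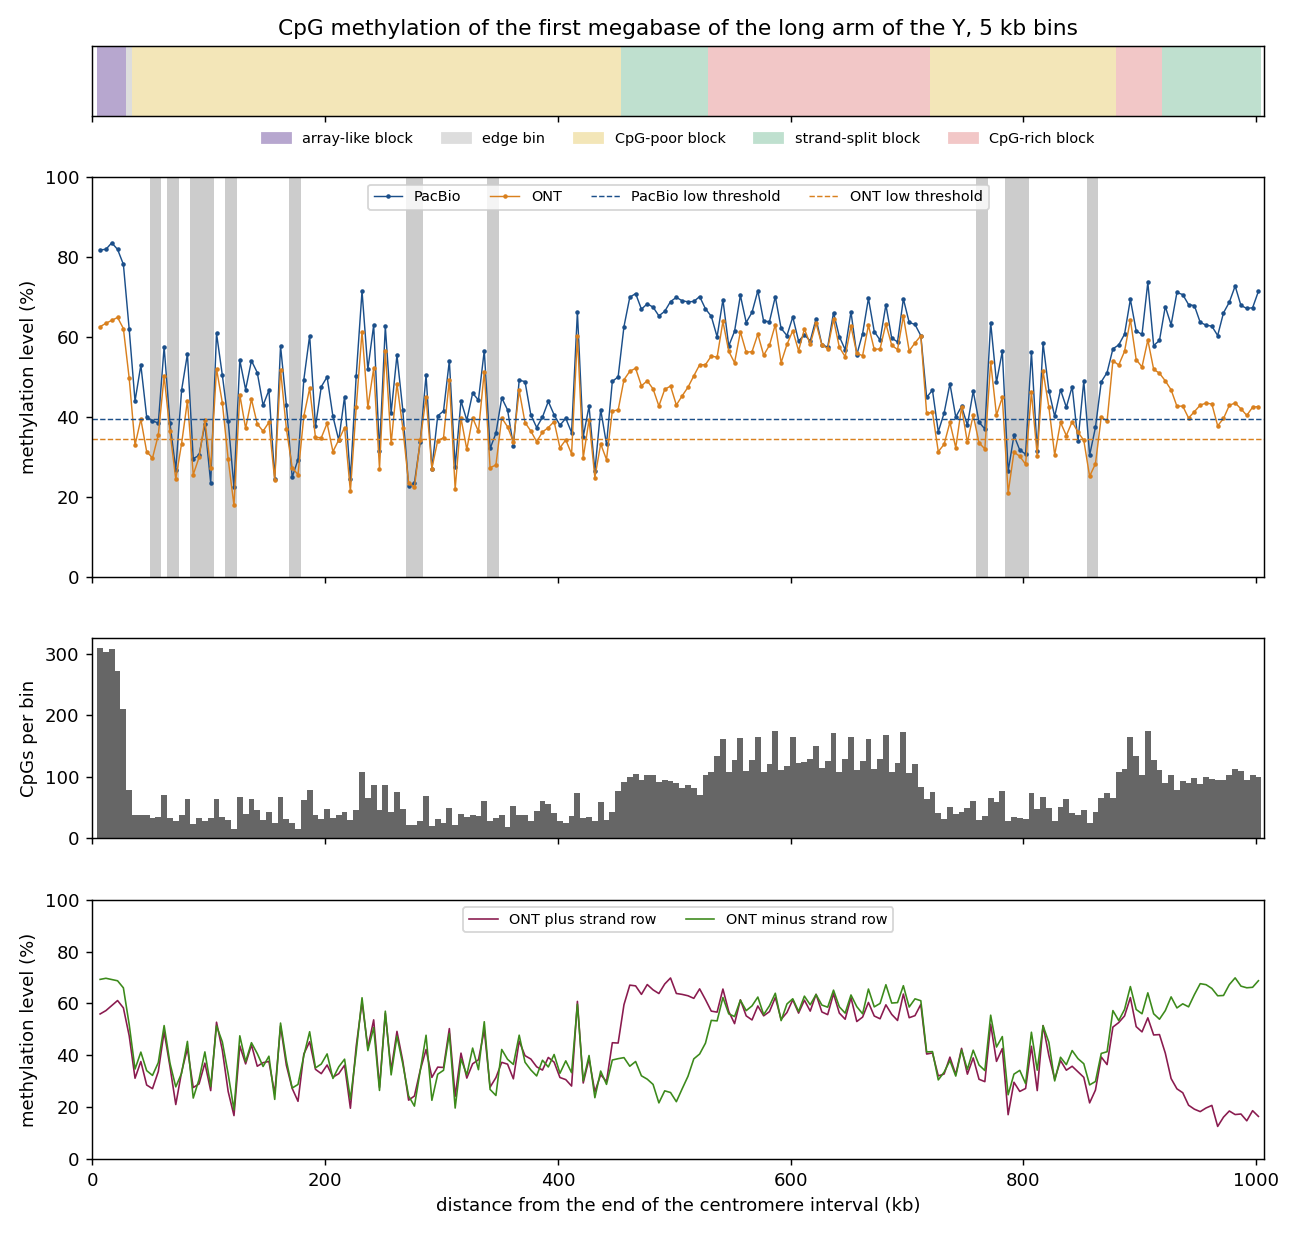
Methylation of the 200 bins against distance from the end of the centromere interval in kb: blocks at the top, then the PacBio and ONT level of each 5 kb bin in percent, the number of CpGs per bin, and the ONT plus and minus strand values in percent. Grey bands are the 10 low stretches and dashed lines the thresholds of 39.5% (PacBio) and 34.4% (ONT). The low stretches lie in the CpG-poor blocks, and the strands separate in both strand-split blocks, with opposite order.

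The first bins of the array-like block repeat CpG positions of the centromere array, so the CpG spacing of the array continues into the window. In the bin nearest the centromere interval, all 310 CpGs recurred at the same spacing 10994 bp further into the array. In the bin after it, all 304 CpGs recurred at a distance of 27487 bp. In the next 3 bins the best of all distances matched 44.2%, 43.0% and 28.1% of the CpGs, and in the bin beyond the block 28.2%. How many CpGs match by chance at the best distance was not computed, so only the first 2 bins are described as matching. The PacBio levels of these 5 bins, in order from the centromere, were 81.8%, 82.0%, 83.6%, 82.0% and 78.2%. They included the 3 highest bins of the window, at 83.6%, 82.0% and 82.0%, and lay near the 80.6% ± 2.99 (SD, n = 504 bins) of the centromere array itself. On ONT they were at 62.6%, 63.5%, 64.2%, 64.9% and 62.2%, above the mean of the array, 55.5% ± 2.90. No bin of this block fell below the threshold for a low bin on either platform.

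A bin was called low where its level was below 0.5 times the median bin of the pseudoautosomal region, the region that recombines with the X-chromosome. That median was 79.1% on PacBio and 68.8% on ONT, so the thresholds were 39.5% and 34.4%. On PacBio, 44 of 200 bins of the window were low, which is 22.0%, against 14.1% of all bins of the chromosome. On ONT, 51 bins or 25.5% were low, against 17.4% of all bins. On both platforms together, 39 bins or 19.5% were low, against 12.6% of all bins. All 44 bins that were low on PacBio lay in the CpG-poor blocks, 32 in the block near the centromere and 12 in the further one.

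Low bins that neighbour each other were joined into low stretches of at least 2 bins. There were 10 such stretches in the 200 bins of the window, with 25 bins and 125 kb in all. The whole chromosome had 318 in its 11882 bins. In the window, 19 further bins were low on their own. The number of stretches depends on the threshold and the bin size. With the threshold at 0.4 or 0.6 times the median of the pseudoautosomal region it was 3 or 18, with bins of 10 kb it was 5, and 2 of the stretches were at least 4 bins long. The number that were low throughout on ONT moved as well, to 2 of 3 at 0.4 and 16 of 18 at 0.6. With thresholds from the centromere array it was 1 of 13, and 8.5% of bins were low on ONT. At the main threshold the ONT count was 7 of 10. Of the 25 bins in stretches, 22 or 88% were also below the ONT threshold. Over the whole chromosome 88.9% of the low PacBio bins were also low on ONT, so this share is near the background. Because the stretches were chosen on PacBio, their PacBio level against the bins beside them is fixed in part by the choice. The ONT level was not used for it, and it lay below both adjoining bins in 9 of 10 stretches. However, PacBio and ONT levels had a Pearson's r of 0.941 over the bins of the CpG-poor blocks. The ONT count is therefore also fixed in part by the choice. The same share over all low stretches of the chromosome was not computed.

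Of the stretches, 4 lie within 130 kb of the end of the centromere interval, at the side on which the study placed CENP-A. The study did so in cells of another animal and tissue. Going outwards, the nearest stretch runs from 16695001 to 16705000 and begins 49.3 kb from the interval. Its bins were at 39.1% and 38.5% on PacBio and at 29.7% and 35.5% on ONT. The stretch holds 67 CpGs, with an SD over CpGs of 19.97 points on PacBio. The bin on its centromere side was at 40.04% on PacBio and 31.4% on ONT, so this stretch was not set off from that side beyond the spread between platforms. It overlaps a pseudogene, LOC132344429, which the study's gene table names as a copy of UBA1, a gene for an enzyme that activates ubiquitin.

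The next stretch, from 16710001 to 16720000, had bins at 38.5% and 26.9% on PacBio and 36.4% and 24.5% on ONT. Its bins held 33 and 27 CpGs. Of its 60 CpGs, 25 were below 20% on PacBio and 19 of these also on ONT, while 8 were at 80% or more. No annotated gene overlaps it, and a bin at 57.6% on PacBio and 50.3% on ONT separates it from the nearest stretch.

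The longest stretch near the centromere runs over 20 kb from 16730001 to 16750000 and starts 84.3 kb from the interval. Its 4 bins were at 29.6%, 30.4%, 38.2% and 23.5% on PacBio. On ONT the same bins were at 25.6%, 29.9%, 39.2% and 27.2%, so the highest bin was the same on both platforms and exceeded the ONT threshold. The bins beside the stretch were at 55.8% and 60.9% on PacBio and 44.0% and 52.1% on ONT. The mean of its bins was thus below the mean of the adjoining bins by 27.9 points on PacBio (30.4% against 58.4%) and by 17.6 points on ONT (30.5% against 48.1%). In the CpG-poor blocks the ONT minus PacBio difference of a bin was -6.02 ± 3.79 points (SD, n = 116 bins). This spread between platforms does not show how far bins of the same block differ. Levels of the bins in the block that holds the stretch had an SD of 10.97 (PacBio) and 8.89 (ONT). The PacBio drop is fixed in part, because the threshold chose the stretch. The ONT drop is so too, since the levels of both platforms went together in these blocks. The adjoining bins held 64 and 63 CpGs, however, against 23 to 33 in the bins of the stretch, and the part of CpG number in the drop was not tested. The stretch contains no annotated gene. Its median depth was 33 reads, below the 41 reads of the window.

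The outermost stretch of this group, from 16760001 to 16770000, contains the lowest bin of the window on both platforms. That bin, between 16765001 and 16770000, was at 22.4% on PacBio and 17.9% on ONT, but it held only 14 CpGs, the fewest of any bin. The other bin of the stretch was at 39.0% and 29.5%. The stretch overlaps a short pseudogene, LOC132344622, with 5 CpGs in its body. The adjoining bins were at 50.5% and 54.3% on PacBio. The next lowest PacBio bins of the window were 1 bin of the longest stretch near the centromere, at 23.5%, and 2 bins further out, at 22.7% and 23.5%.

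**Figure D2:**
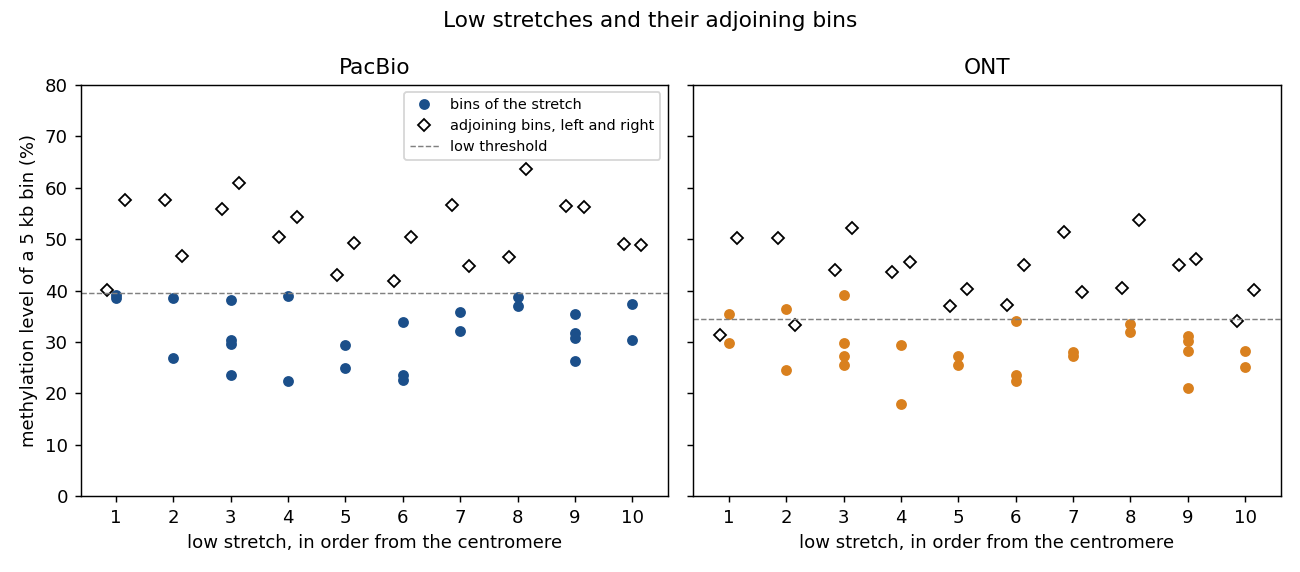
Levels in percent of the 5 kb bins inside each of the 10 low stretches (filled circles) and of the adjoining bin on either side (open diamonds), numbered in order from the centromere, for PacBio (left) and ONT (right). The dashed line is the low threshold, 39.5% on PacBio and 34.4% on ONT. On ONT, 22 of the 25 bins lie below the line, a share close to the 88.9% of all low PacBio bins of the chromosome.

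A further 3 stretches lie in the outer part of the same CpG-poor block. The stretch from 16815001 to 16825000 had bins at 24.9% and 29.4% on PacBio and 27.4% and 25.6% on ONT, and none of its 40 CpGs reached 80% on PacBio. It overlaps LOC132344431, a pseudogene named as ZNF280B, a zinc finger gene. From 16915001 to 16930000, 3 bins were at 22.7%, 23.5% and 33.8% on PacBio and 23.6%, 22.4% and 34.2% on ONT. This stretch overlaps LOC132344624, a pseudogene named as HSFY, a Y-linked heat shock factor family. Its median depth of 60 reads, with 54 to 76 reads over its CpGs, was above that of the window, and the part of depth in its level was not tested. From 16985001 to 16995000, bins were at 32.1% and 35.9% on PacBio and 27.3% and 28.0% on ONT, with no gene.

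The remaining 3 stretches lie in the second CpG-poor block, 759 kb or more from the centromere interval. From 17405001 to 17415000 the bins were at 38.7% and 37.0% on PacBio and 33.5% and 32.03% on ONT. From 17430001 to 17450000, 4 bins were at 26.4%, 35.4%, 31.7% and 30.7% on PacBio and 21.0%, 31.2%, 30.2% and 28.2% on ONT. From 17500001 to 17510000 the bins were at 30.5% and 37.4% on PacBio and 25.2% and 28.3% on ONT. The 4-bin stretch of this block and the one near the centromere had similar means, 31.1% and 30.4% on PacBio and 27.6% and 30.5% on ONT. Low stretches were thus also present far from the array. The likeness of the PacBio means is fixed in part, because the same threshold chose both stretches.

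Low bins had few CpGs. The 44 low PacBio bins held 14 to 52 CpGs with a median of 31.5, and the other 156 bins held 18 to 310 with a median of 86. The median depth was 41 reads in both sets. Across the 200 bins, Pearson's r between the PacBio level and the log2 number of CpGs was 0.902, and with the ONT level it was 0.893. Within the 116 bins of the CpG-poor blocks it was 0.803 on PacBio and 0.793 on ONT. The same ordering held for single CpGs: those with no other CpG within 250 bp were at 24.4% ± 18.2 on PacBio (SD, n = 145 CpGs), those with 4 to 7 at 49.1% ± 25.5 (n = 3267), and those with 16 or more at 77.3% ± 19.3 (n = 3619). On ONT the corresponding means were 21.9%, 39.6% and 65.6%. Within the CpG-poor blocks alone the PacBio mean still ran from 24.4% to 75.9% over these classes.

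**Figure D3:**
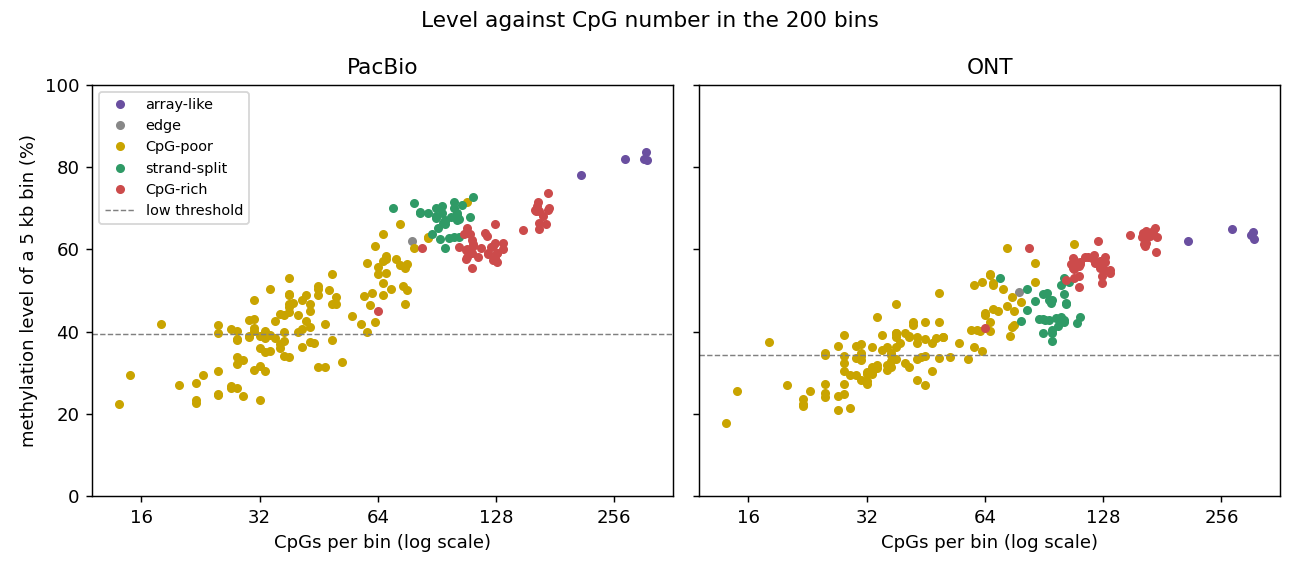
Level in percent of each of the 200 bins against its number of CpGs on a log scale, for PacBio (left) and ONT (right), coloured by block. The dashed lines are the low thresholds. Bins below the PacBio line have 52 CpGs or fewer, and the level is higher in bins of more CpGs on both platforms.

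Since CpG number moved with the level, bins of fewer than 40 CpGs were also compared among themselves. The window had 60 such bins, with 31 CpGs at the median, a PacBio mean of 36.5% ± 7.82 and an ONT mean of 31.7% ± 5.92. Of these, 37 or 61.7% were low on PacBio, against 33.8% of the 4295 such bins of the chromosome, which also had 31 CpGs at the median. On ONT 40 or 66.7% were low, against 40.7%. The share in the window was therefore above the background at similar CpG numbers.

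The window was also set against the parts of the chromosome beside it. The centromere array, with 504 bins, was 28.3 points higher on PacBio and 11.9 points higher on ONT, and none of its bins was low on either platform. As means over CpGs, the window minus the array was smaller in size, -20.7 points on PacBio and -5.74 points on ONT. The 1 Mb beside the array on the short arm, with 199 bins, had a PacBio mean of 70.3% ± 18.6 and an ONT mean of 51.9% ± 12.4. Its low bins were fewer, 22 or 11.1% on PacBio, but its median bin held 310 CpGs against 66 in the window. In its 35 bins of fewer than 40 CpGs the PacBio mean was 37.5% ± 8.39, and 21 or 60.0% were low. On ONT these bins were at 30.2% ± 5.86, and 26 or 74.3% were low. For bins of few CpGs the long-arm window was lower than the short-arm side by 0.941 points on PacBio and higher by 1.56 points on ONT, both less than the SD over bins.

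The rest of the proximal long arm, up to 24 Mb, had 1270 bins with a PacBio mean of 61.2% ± 11.5 and an ONT mean of 43.1% ± 8.46. On PacBio 79 or 6.22% of its bins were low. Its 191 bins of fewer than 40 CpGs were at 48.6% ± 15.7 on PacBio and 41.3% ± 13.6 on ONT, and 53 or 27.7% of them were low on PacBio. At like CpG numbers the window was therefore lower than the long arm beyond it, with differences of -12.1 points on PacBio and -9.56 points on ONT. Both are within 1 SD of these bins of the long arm. They exceed the SD of such bins in the window, 7.82 points on PacBio and 5.92 points on ONT. No test was possible with 1 library on each platform.

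Single CpGs showed where the low levels came from. In the CpG-poor block near the centromere, 23.6% of the 3550 CpGs were below 20% on PacBio and 15.7% were at 80% or more, while on ONT 24.8% were below 20% and 4.87% at 80% or more. In the array-like block only 0.499% of 1404 CpGs were below 20% on PacBio and 69.5% were at 80% or more. Low stretches were a mixture of low and intermediate CpGs: in the 20 kb stretch near the centromere 52 of 116 CpGs were below 20% on PacBio and 5 at 80% or more, with an SD over CpGs of 23.7 points. They were not uniformly unmethylated.

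Runs of 4 or more neighbouring CpGs that were all below 20% on both platforms numbered 31. Of these, 30 lay in the CpG-poor blocks, 6 or 19.4% lay within a low stretch and 3 or 9.68% overlapped an annotated gene. For comparison, low stretches hold 717 or 14.0% of the 5105 CpGs of the CpG-poor blocks, and genes hold 21.5% of them. The longest held 10 CpGs over 1121 bp from 16867143 to 16868263, with PacBio levels of 9.42% ± 4.93 (SD, n = 10 CpGs) and ONT levels averaging 10.7%. These levels are low by the choice of the run, and its CpGs, each at a depth of 43 or 44 reads, largely share their reads. The bin that holds it was at 24.4% on PacBio and 21.4% on ONT and was low on its own, without a low neighbour. A run of 7 CpGs from 16901851 to 16902957 was at 6.59% on PacBio and 9.01% on ONT, inside a bin at 41.1%. Neither run lies in an annotated gene.

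The tandem array is made of 11 protein-coding genes of 3650 or 3651 bp, LOC132344471 to LOC132344481, between 17186863 and 17347295. The gene table of the assembly gives them no family name. Their starts follow each other at 15676 to 15685 bp, and the distance shared by most CpG pairs in the window, 15677 bp with 2355 pairs, is the same length. The 11 units, each taken from 5 kb before the gene start, held 415 to 421 CpGs. Copies this alike can exchange reads in the alignment, so the level of a single copy is uncertain.

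The 11 units were at 63.6% ± 2.37 on PacBio (SD over copies, n = 11) and ranged from 60.5% to 67.4%. On ONT they were at 59.2% ± 1.06 and ranged from 57.7% to 60.7%. The gene bodies were at 68.9% ± 3.26 on PacBio and 63.3% ± 1.52 on ONT, above the rest of the units at 61.4% ± 2.09 and 57.6% ± 1.02. A body also held 119 to 121 of the 415 to 421 CpGs of a unit, on about 3650 of 15677 bp. It was thus denser in CpGs than the rest, and the part of CpG number in the difference was not tested. Within each of the 11 copies the gene body was higher than the rest of its unit on both platforms. Across copies the ranges overlapped on PacBio, where the lowest body was at 64.9% and the highest rest at 65.3%, and did not on ONT, at 60.0% and 59.2%.

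Along the unit the lowest window and the 2 highest windows were the same in every copy on both platforms. Other windows varied between copies. From the window that begins 3 kb after the gene start to the next, PacBio rose in copy 1 (52.1% to 60.9%). Over the same step it fell in copy 3 (62.7% to 54.35%). The window of 1 kb that ends 1 kb before the gene start was lowest, at 35.1% ± 4.25 on PacBio (n = 11, 29.9% to 42.2%) and 39.2% ± 2.68 on ONT (35.4% to 44.8%). The windows on either side of the gene start were highest, at 74.98% ± 2.78 and 78.05% ± 2.60 on PacBio and at 68.9% ± 1.301 and 71.0% ± 1.72 on ONT. The low window had 16 CpGs in every copy and the window that begins at the gene start 55. The window that begins 5 kb before the gene start also had 16 CpGs and was at 62.1% on PacBio, and the one that begins 4 kb after it had 14 and was at 54.8%. The part of CpG number in the course along the unit was not tested. None of the 11 copies of the low window reached the level of any other window of the unit on PacBio, where the next lowest single value was 45.0%. On ONT the highest copy of the low window was at 44.8%, and the lowest single value of another window was 44.7%.

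**Figure D4:**
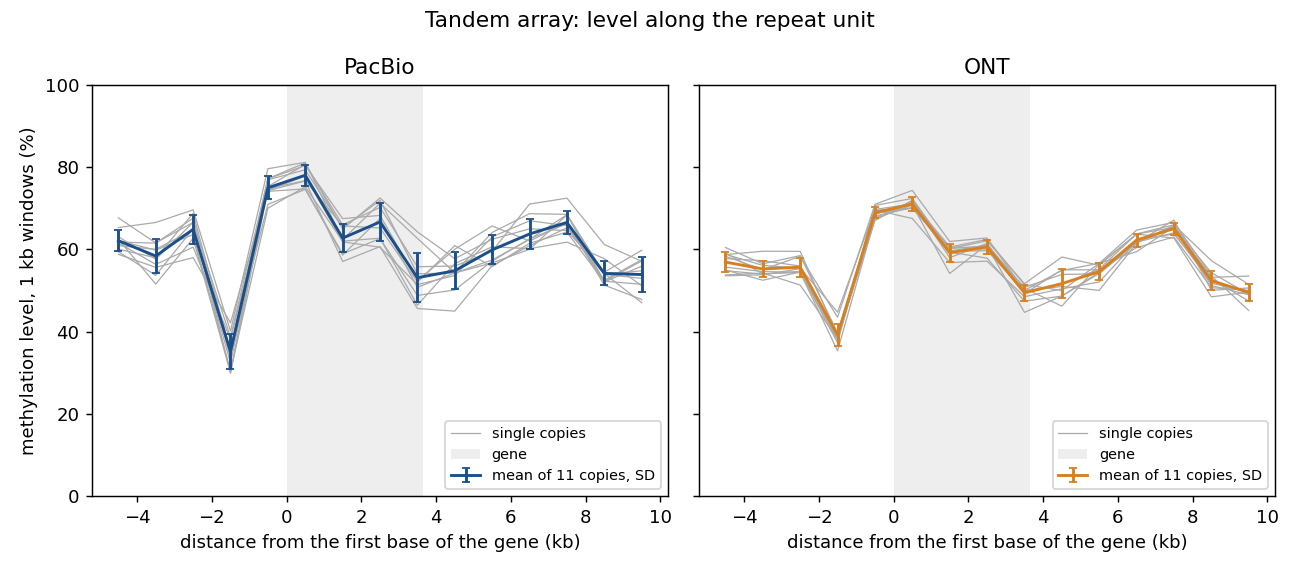
Level in percent along the repeat unit of the tandem array in windows of 1 kb, against distance in kb from the first base of the gene, for PacBio (left) and ONT (right). Grey lines are the 11 single copies, the coloured line is their mean with SD, and the shaded band is the gene. The low window before the gene start, 35.1% on PacBio and 39.2% on ONT, recurs in all 11 copies.

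A pair of inverted units of the same kind lies beyond the second CpG-poor block. They carry LOC132344483, from 17535771 to 17538202, and LOC132344437, from 17550556 to 17553877, which the study's gene table names as TSPY3, a member of the testis-specific protein family of the Y. Read in the inverted direction from the far end of each gene, the window that matches the low one was at 35.9% and 37.6% on PacBio and 35.2% and 36.4% on ONT. The matching windows on either side of the gene end were at 75.2% and 75.6% for LOC132344483 and at 80.8% and 80.2% for LOC132344437 on PacBio. On ONT they were at 66.8% and 70.8% for LOC132344483 and at 62.5% and 64.9% for LOC132344437, the latter below all 11 direct copies in both windows. Of the 15 windows of the unit, 13 of each inverted unit lay within the range of the direct copies on PacBio. On ONT, 9 windows of the unit of LOC132344483 lay within that range. For the unit of LOC132344437, 6 windows lay within it and 9 lay below it.

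The second CpG-poor block is an inverted repeat. Its CpG positions mirror each other about 17440895: 180 CpG pairs shared the same sum of positions, where the median sum was shared by 4 pairs. When the sum was allowed to shift in each 5 kb bin, 503 pairs matched, reaching from 17365016 to 17516820. The 180 pairs had mean levels of 50.9% on the centromere side and 47.03% on the other side on PacBio, a difference of 3.83 points, and 41.05% and 41.3% on ONT. The 503 pairs, a pairing chosen after seeing the data, had mean levels of 47.2% on the centromere side and 47.1% on the other side on PacBio, and 39.7% and 38.8% on ONT. Among the 503 pairs, the difference within a pair had an SD of 14.95 points on PacBio, larger than the median SD of 9.70 points that counting error alone gives. In size the difference averaged 11.3 points on PacBio, and 6.55 on ONT. The level of a CpG and of its mate had a Pearson's r of 0.842 on PacBio and 0.932 on ONT over the 503 pairs, which share sequence and CpG spacing. In the bins that gave the 503 pairs, 40.8% to 100% of the CpGs had a mate, and the sequence identity of the arms was not measured. As in the tandem array, reads of stretches that are alike can be placed on either arm. The part of read placement in the likeness was not tested.

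In the 13 windows of 5 kb that lie outside the spacer, the arms went up and down together. The level at 10 to 15 kb from the centre was 57.0% and 55.3% on PacBio, and at 25 to 30 kb it was 31.7% and 32.3%. Over these windows the arms differed most at 60 to 65 kb, by 6.73 points (PacBio) and 6.35 points (ONT), where the centromere side was higher on both platforms. At the median the arms differed by 2.88 points (PacBio) and 1.23 points (ONT). The middle of the repeat, between 17433323 and 17448467, had few mirrored partners, with 2 of 34 CpGs matched in one bin and 1 of 7 in the next. This spacer of 15.1 kb, up to 7.57 kb from the centre on either side, held 98 CpGs at 33.4% ± 22.9 on PacBio and 30.4% ± 19.9 on ONT, and most of the 20 kb low stretch of this block lies on it. The remaining 1457 CpGs of the block were at 46.5% ± 26.5 and 39.3% ± 22.9.

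**Figure D5:**
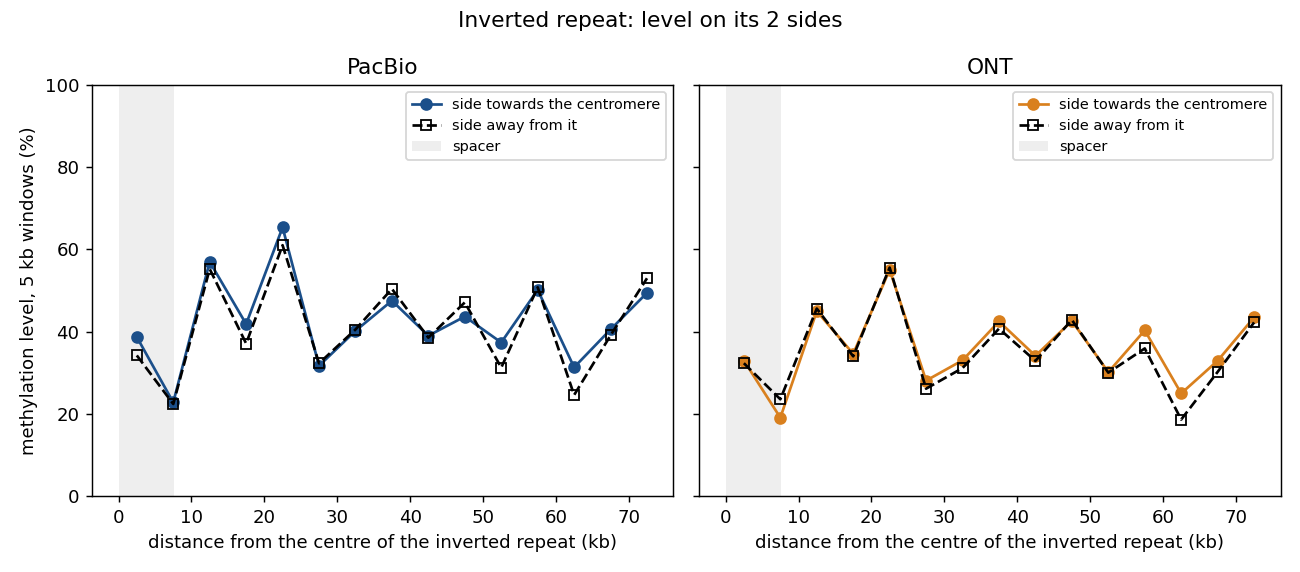
Level in percent in 5 kb windows against distance in kb from the centre of the inverted repeat, on the side towards the centromere (filled circles) and on the side away from it (open squares), for PacBio (left) and ONT (right). The shaded band is the spacer. In the 13 windows outside it the sides differ by at most 6.73 points on PacBio and 6.35 points on ONT.

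The window as a whole also had a sum of positions that was shared by 841 CpG pairs, against 67 pairs for the median sum, with its centre at 17393893. Of these pairs, 771 or 91.7% joined the CpG-rich block of the tandem array to the CpG-rich block of the inverted units. Mates under this sum were at 64.3% on both sides on PacBio and at 59.0% and 55.6% on ONT, with a mean size of the difference of 11.5 points on PacBio and 9.69 points on ONT.

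Both strands of a CpG are usually methylated alike, and over most of the window the ONT strand values were close. In the CpG-poor block near the centromere the plus strand was at 36.2% and the minus strand at 37.0%, and no bin had a gap above 8.83 points. In the 11 units of the tandem array the strands were at 58.03% ± 1.23 and 60.4% ± 1.73 (SD over units). In the array-like block the minus strand was higher in each bin, by 10.2 ± 2.63 points on average.

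The strand-split blocks, which were formed by their strand gap of 15 points or more, differed from this by that choice. From 17100001 to 17175000 the plus strand was at 64.7% ± 2.72 and the minus strand at 32.2% ± 6.99 (SD, n = 15 bins), with gaps between 16.8 and 44.1 points in every bin. In the 17 bins at the far end of the window the order was opposite, with the plus strand at 20.9% ± 6.88 and the minus strand at 64.2% ± 3.86. The mean gap of plus minus minus was 32.4 ± 8.38 points in one block and -43.3 ± 9.86 points in the other. The rule used the size of the gap and not its sign. The PacBio levels of the blocks, which combine both strands, were 68.1% ± 2.15 and 67.1% ± 3.50 and differed by less than the SD over bins. The ONT mean of both strands fell below PacBio there by 19.6 ± 3.46 and 24.5 ± 4.12 points. The shortfall was 6.02 points in the CpG-poor blocks, but 18.1 ± 1.45 points in the array-like block, where the strand gap was smaller, and 25.1 points in the centromere array. Of the bins with a strand gap of 20 points or more, 14 had the plus strand higher and 16 the minus strand. These 30 bins are 15% of the window, against 8.29% of all bins of the chromosome and 58.5% of the rest of the proximal long arm. The ONT level of these blocks depends on the strand, and PacBio offers no strand values to compare.

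The gene table of the assembly places 30 genes in the window, 20 protein-coding and 10 pseudogenes, and 16 of them have a family name in the study's gene table. The mean body level was 64.1% ± 8.83 for protein-coding genes on PacBio (SD over genes, n = 20) and 36.8% ± 10.9 for pseudogenes (n = 10). On ONT it was 56.9% ± 9.53 and 31.4% ± 7.76. The groups overlapped, from 40.6% to 73.7% for protein-coding genes and from 19.3% to 54.6% for pseudogenes on PacBio. All 10 pseudogenes lie in CpG-poor blocks, while 11 of the 20 protein-coding genes are copies of the tandem array. In the CpG-poor blocks alone, 6 protein-coding genes were at 55.0% ± 7.65 on PacBio and 44.9% ± 5.74 on ONT. Genes were placed by their start. LOC132344625 starts in the CpG-rich block but has 2822 of its 3555 bp in the second CpG-poor block, and with it the 7 genes were at 54.3% ± 7.26 and 45.1% ± 5.27. Their bodies also held more CpGs, 14.2 per kb against 7.39 in the pseudogenes, and the part of CpG number in the difference was not tested.

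Of the named families, PRAME, a family of genes expressed in testis and tumours, had 4 protein-coding copies with bodies at 58.0% ± 3.71 on PacBio and 47.3% ± 3.66 on ONT. All 4 lie in CpG-poor blocks. LOC132344470, from 16875831 to 16888065, was at 62.5% ± 27.0 (SD, n = 209 CpGs), and the bin at its start, at 71.5% on PacBio and 61.4% on ONT, was the highest of the CpG-poor block. LOC132344623, from 16781166 to 16786549, was at 59.1% on PacBio. LOC132344482 and LOC132344627, mirror copies in the inverted repeat, were at 56.3% and 53.9%. Their difference is below the SD over their CpGs, 28.2 and 27.3 points.

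The 3 TSPY1 copies, which belong to the testis-specific protein family of the Y, were at 54.1% ± 4.05 on PacBio and 45.0% ± 1.73 on ONT. LOC132344625 and LOC132344628, both 3555 bp and mirror copies, were at 49.8% and 57.9% on PacBio. The third copy is a pseudogene, LOC132344432, at 54.6%. ZNF280B, a zinc finger gene, had 4 copies at 32.2% ± 9.40 on PacBio and 28.7% ± 4.39 on ONT, and 3 of these, LOC132344431, LOC132344626 and LOC132344436, are pseudogenes at 19.3%, 31.6% and 37.5% on PacBio. LOC132344436 lies across the outermost low stretch, and LOC132344431 and LOC132344626 hold only 5 and 8 CpGs. The protein-coding copy, LOC132344433 from 17047045 to 17060561, was at 40.6% ± 27.3 (n = 90 CpGs), while the 2 kb around its far end stood at 76.0% with 54 CpGs. Both copies of ZNF280A, also a zinc finger gene, LOC132344434 and LOC132344435, are pseudogenes and were at 32.2% and 33.8% on PacBio and 28.3% and 31.2% on ONT. LOC132344435 lies across the spacer of the inverted repeat. A pseudogene without a family name, LOC132344430, was at 54.0% with 20 CpGs.

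Counted by CpG within the CpG-poor blocks, the 592 CpGs of protein-coding bodies were at 56.3% ± 27.5 on PacBio, the 461 of pseudogene bodies at 38.3% ± 24.1 and the 4009 outside genes at 45.5% ± 27.2 (SD over CpGs). Their densities had the same order, 13.1, 7.40 and 8.53 CpGs per kb, and the part of density in these levels was not tested. Taking all genes there as 1 set, with the 43 CpGs of LOC132344625 that lie in these blocks, the 1096 CpGs inside genes were at 48.3% ± 27.5 on PacBio and 40.2% ± 23.4 on ONT, and the CpGs outside genes at 39.2% ± 23.0 on ONT. The windows of 1 kb on either side of gene ends averaged 56.4% over the 30 genes on PacBio and 49.5% on ONT. With both ends of a gene combined, the lowest were those of the ZNF280A pseudogene LOC132344434 at 21.3%, and the highest those of a gene of the tandem array at 76.2%. Taken singly, 3 of the 32 ends of genes that start in the CpG-poor blocks, or 9.38%, were below 20% on PacBio, against 4.83% of the 269 windows of 2 kb with at least 8 CpGs in these blocks. On ONT 2 of the 32 were, or 6.25%, against 4.83% there too. The PacBio ends were the first end of LOC132344431 at 17.5%, the first end of LOC132344434 at 18.8% and the last end of LOC132344435 at 19.9%, all of zinc finger pseudogenes. On ONT they were at 22.2%, 19.4% and 20.97%, so 1 of them was below 20% on both platforms, and the other low end on ONT was the first end of LOC132344436 at 18.2%. They are so few that the shares do not set gene ends apart from other windows.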

How the data were processed

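CpG methylation of lung DNA was read from 1 PacBio and 1 ONT library. Per the study's methods, the authors made the PacBio table with Primrose, pbmm2 and pb-CpG-tools, and the deposited columns are a methylation level in percent, a read count, and, per CpG, estimated counts of reads with and without the modification. The ONT table was made by the authors with Dorado (a model that separates 5mC and 5hmC), Winnowmap and modbam2bed, and its deposited values are percentages per strand, filtered at the thresholds of the methods. Values of exactly 0 can be missing estimates, and 1.74% of ONT rows in the window were at 0.

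PacBio positions were counted from the other end of the chromosome and turned, and ONT positions were shifted, to place both on the ARS-UCD2.0 Y. CpGs with at least 10 reads were averaged without weights in 5 kb bins of at least 5 CpGs. Low bins lay below 0.5 times the median bin of the pseudoautosomal region, and low stretches were at least 2 neighbouring low bins. Blocks were formed on running medians over 5 bins: array-like at 200 or more CpGs per bin, CpG-poor under 75, strand-split at a strand gap of 15 points or more, CpG-rich otherwise. A block under 3 bins joined a CpG-poor block before it.

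All genes of the RefSeq table in the window, all bins of low stretches, the bin next to the array and the 3 lowest and 3 highest bins were to be named, ties included. Family names came from the study's gene table where both ends matched, as for 16 of 30 genes. Members, lists and blocks were chosen with earlier results of these data known. No test was run, since each platform had 1 library. Python 3.11.15 with numpy 2.4.6 and pandas 2.3.3 was used, and the scripts were tested on simulated data with planted stretches and repeats.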

Additional observations from a re-analysis of the deposited data

Results flagged for a closer look

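The PacBio and ONT libraries pointed in opposite directions in 2 comparisons of the window with its surroundings. The long-arm pericentromere minus the rest of the proximal long arm was -8.91 points on PacBio (52.3% against 61.2%) and 0.550 points on ONT (43.6% against 43.1%), a difference that was not tested with 1 library on each platform. Mean strand gaps of ONT bins were 8.97 points in the window and 27.8 points in the rest of the proximal long arm, and ONT lay below PacBio by 8.67 and 18.1 points in these regions. Among bins of fewer than 40 CpGs, the window minus the short-arm pericentromere was -0.941 points on PacBio (36.5% against 37.5%) and 1.56 points on ONT (31.7% against 30.2%), which was not tested either and is less than the SD over bins.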

How the results depend on the processing

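Of 86 alternative values over 20 results, 34 moved and 52 stayed within a limit. For counts the limit was 1.5 times the main count. For levels, shares and differences it was an interval that counted CpGs or bins, not reads, as if each were an independent draw. CpGs and bins are not replicates, so the limits sort the alternatives by size and do not test them. Of these 52, 12 are read minimums of 4 and 20, which select the same CpGs because the lowest depth was 23 reads, and they say nothing about stability. Weighting by reads, levels from estimated counts and at least 20 CpGs per bin moved nothing beyond these limits. The ONT mean was 42.1% from the plus strand and 45.1% from the minus strand, and 33% of bins were low on the plus strand. Without CpGs at 0 on ONT the means were 53.2% (PacBio) and 44.6% (ONT), and with 10 kb bins 53.2% and 44.4%, with 5 stretches and 17% low ONT bins. The first 500 kb alone were at 47.1% and 39.2%. The centromere threshold left 8.5% low ONT bins and 1 stretch low on ONT throughout. A factor of 0.4 gave 3 stretches (2 low on ONT throughout), 9.5% low PacBio and 8.5% low ONT bins; 0.6 gave 18 (16), 39.5% and 46.5%. Runs of at least 4 bins left 2 stretches, 1 low on ONT throughout. As means over CpGs, the window minus the centromere array was -20.7 points (PacBio) and -5.74 (ONT), minus the short-arm side -19.8 (PacBio), and minus the rest of the proximal long arm -3.61 and 6.40. As medians of bins these were -26.3 (PacBio), -26.4 and -14.999, and -10.6 (PacBio). Pairing within 2 bp raised the mean difference of mates under the most frequent sum to 14.4 points. Local sums, chosen after seeing the data, gave 503 pairs in the inverted repeat.

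No paired analysis was possible because each platform had 1 library and nothing was tested. Depth limits single CpGs: at 41 reads the Wilson interval is 26.2 points wide for 30 modified reads and 18.7 points for 4. The lowest bin rests on 14 CpGs. The ONT depth is unknown.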
